A study of Bos taurus with 47 samples.

Results

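ADIPOQ, FABP4 and DGAT2 are 3 genes of the fat cell, and their levels were followed across the tissues of Holstein cattle. They are 3 of the 24616 gene identifiers in the deposited RNA sequencing table, chosen by identifier for their high level in adipose tissue: ENSBTAG00000019813 (ADIPOQ), ENSBTAG00000037526 (FABP4) and ENSBTAG00000001154 (DGAT2). The table pairs no identifier with a gene name, so these names rest on the choice of members alone. All 3 identifiers were found in the table.

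The series addresses transcriptomes of many cattle tissues, and 47 libraries under 15 tissue labels were used. Adipose tissue, muscle, ileum, heart, rumen, lung, kidney, liver, frontal cortex and spleen each had 4 libraries, from 2 males (A and B) and from 2 females. One female gave the gland labelled as lactating and the other the gland labelled as dry, and they are called the lactating cow and the dry cow. Uterus and ovary had 2 libraries each, from both females. Each of these glands had 1 library, as did lymphocytes, which came from a further male, and these 3 labels have no replicate. The labels name no treatment, and the animals' ages and the fat depot sampled are not given in the sources used here. Values are FPKM (fragments per kilobase of transcript, scaled to the sequenced fragments), so levels of different genes are compared per length.

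A fat cell stores energy as triglyceride in a large lipid droplet and also works as an endocrine cell. ADIPOQ encodes adiponectin, a hormone that is made largely by fat cells and released into the blood. FABP4 encodes a small carrier of fatty acids inside the cell, abundant in fat cells and, in mouse and human, also made by capillary endothelium and by macrophages. DGAT2 encodes an enzyme of the last step of triglyceride synthesis, which joins a fatty acid to diacylglycerol, and tissues other than fat use it too.

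Summed FPKM ranged from 576130 to 964931 per library. The number of fragments per library is unknown, and low values placed relative depth between 0.755 and 1.44. Traces of genes otherwise restricted to another tissue were seen in 37 libraries, at 61.0 to 1340 ppm of the liver level for liver genes (rumen genes were read in the liver libraries). The other 10 libraries, which are the lymphocyte library and 9 of the lactating cow, held 0 to 33.3 ppm of the liver genes and so stand apart in this respect. The part of such traces in the lowest levels given here was not tested.

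ADIPOQ was listed in adipose tissue at 789.0 FPKM in male A, 1125.5 in male B, 791.4 in the lactating cow and 465.5 in the dry cow, a mean of 793 ± 269 FPKM (SD, n = 4). Each adipose library stood above all 43 others, and the lowest was 6.72 times the highest of them, the ileum of male A. The genes were chosen for this pattern, so these levels are a description and carry no test. In bulk tissue, fewer cells of a type and less RNA per cell cannot be told apart.

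FABP4 was at 5125 FPKM in adipose tissue of male A, 4266 in male B, 3238 in the lactating cow and 2647 in the dry cow, a mean of 3819 ± 1098 FPKM (SD, n = 4). It ranked between place 3 and place 23 among all identifiers of those libraries. DGAT2 was at 2041 and 2462 FPKM in adipose tissue of males A and B and at 914.0 and 641.5 FPKM in the lactating and the dry cow, a mean of 1515 ± 875 FPKM (SD, n = 4). Among the 3 genes DGAT2 was the most uneven between animals, with a highest adipose value 3.84 times the lowest. The same ratio was 2.42 for ADIPOQ and 1.94 for FABP4.

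The adipose mean of ADIPOQ was 34.7 times that of the next label, muscle. For FABP4 it was 15.3 times that of the next label, the lactating mammary gland, and for DGAT2 9.12 times that of the heart. These ratios moved with the scaling of the libraries. Quantile normalization gave 20.8 for ADIPOQ, 8.99 for FABP4 and 11.6 for DGAT2, and rescaling to the same FPKM sum gave 40.8, 18.7 and 13.8. Scaling by the sum without the 10 most abundant genes gave 29.3, 6.17 and 11.6. The next label was the same each time, except that it was the dry gland for FABP4 after rescaling to the same sum. Of 12272 identifiers with an adipose mean of at least 1 FPKM, 64 (0.522%) had an adipose mean of at least 4 times that of every other label, the 3 genes among them. Of the other 61, none had a higher adipose mean than FABP4, 1 had a higher one than DGAT2 and 5 had a higher one than ADIPOQ.

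Outside adipose tissue the genes differed in how widely they were seen. At least 1 FPKM was reached by ADIPOQ in 8 of the 43 other libraries, by FABP4 in 28 and by DGAT2 in 40. The median over these libraries was 0.239 FPKM for ADIPOQ, 2.64 FPKM for FABP4 and 9.73 FPKM for DGAT2.

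**Figure D1:**
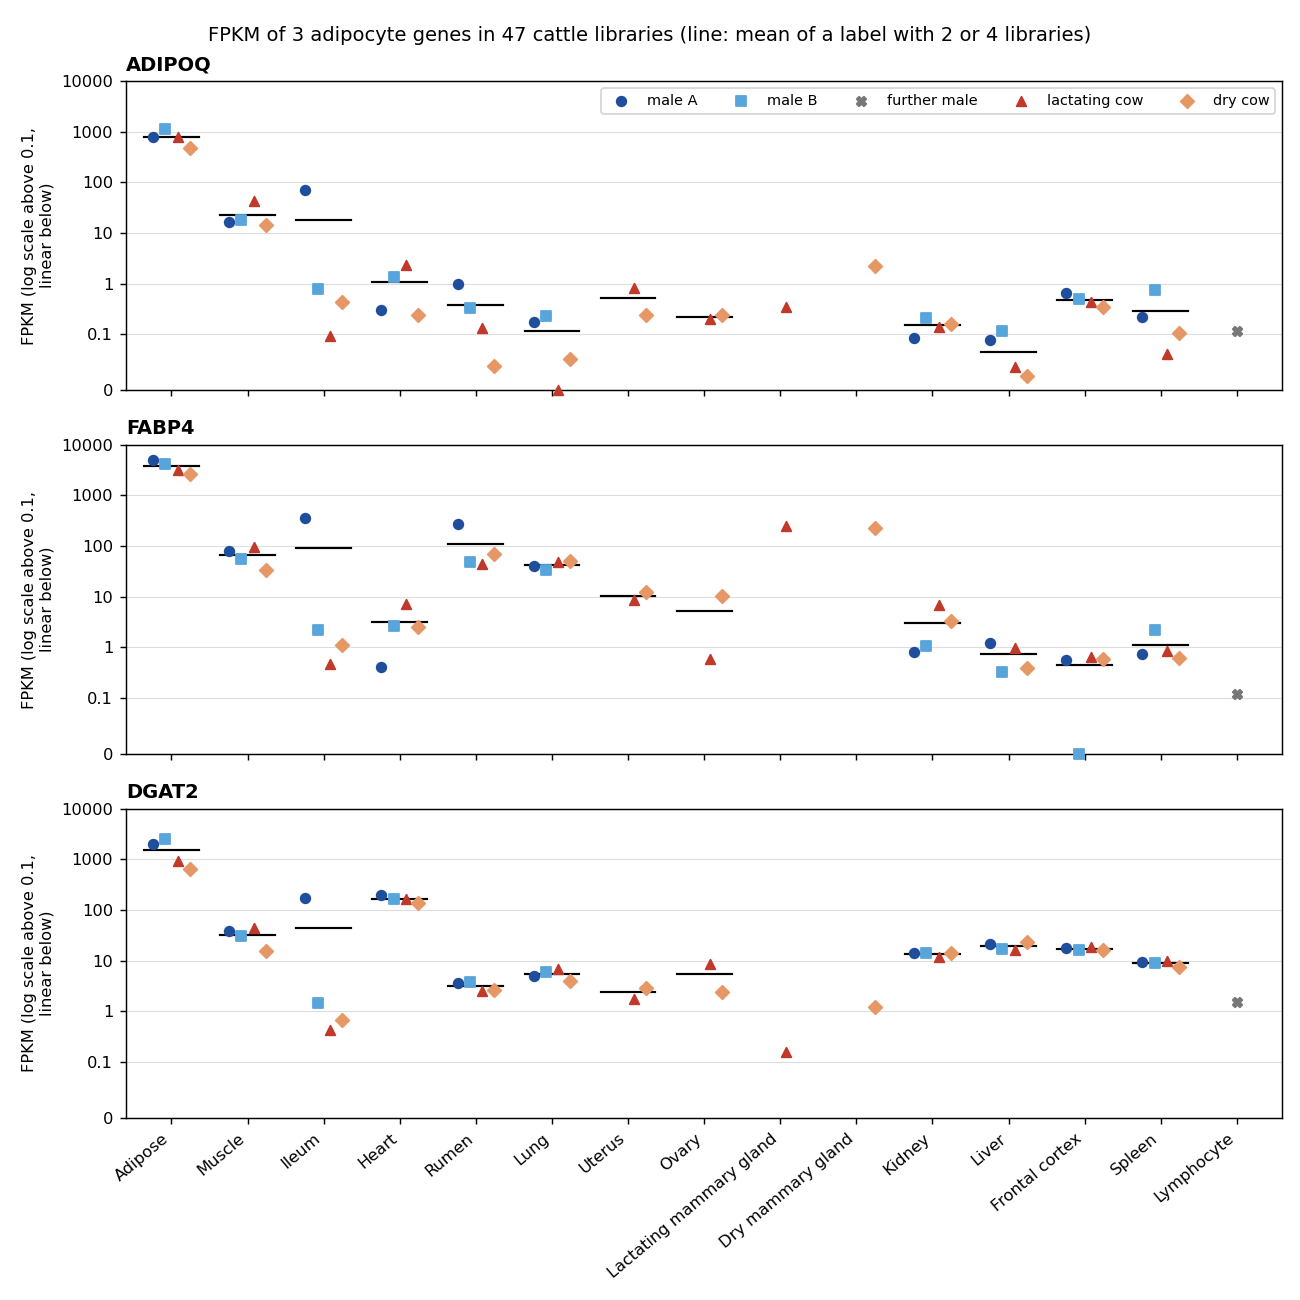
FPKM of ADIPOQ, FABP4 and DGAT2 in each of 47 libraries by tissue label, on an axis that is logarithmic above 0.1 FPKM and linear below. Points are libraries, shaped by animal, and a line is the mean of a label with 2 or 4 libraries. The 4 adipose libraries lie above all others in each panel, and the ileum of male A lies far above the other 3 ileum libraries.

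Muscle had the next highest mean of ADIPOQ. It was at 16.6 and 17.8 FPKM in males A and B and at 42.6 and 14.4 FPKM in the lactating and the dry cow, a mean of 22.9 ± 13.3 FPKM (SD, n = 4). The lactating cow stood above the other 3 animals, which lay close together. In the same order of animals, FABP4 was at 79.1, 54.4, 96.6 and 33.4 FPKM in muscle, a mean of 65.9 ± 27.7 FPKM (SD, n = 4). DGAT2 was at 37.9, 30.7, 43.5 and 15.2 FPKM, a mean of 31.8 ± 12.3 FPKM (SD, n = 4). The lactating cow was the highest and the dry cow the lowest for each of the genes. Traces of liver genes in the same muscles were at 1340 and 149 ppm in males A and B and at 445 and 89.4 ppm in the lactating and the dry cow, and their part was not tested.

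The ileum, the last stretch of the small intestine, held 1 library unlike the rest. ADIPOQ was at 69.3 FPKM in male A, and at 0.781 in male B, 0.0965 in the lactating cow and 0.425 in the dry cow. FABP4 was at 365.9 FPKM in male A, and at 2.21, 0.467 and 1.10 FPKM in the other 3 in the same order. DGAT2 was at 173.8 FPKM in male A, and at 1.42, 0.423 and 0.657 FPKM in the other 3. The ileum means of 17.6 ± 34.4 FPKM for ADIPOQ, 92.4 ± 182 FPKM for FABP4 and 44.1 ± 86.5 FPKM for DGAT2 (SD, n = 4) therefore describe none of the 4 samples.

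The heart separated DGAT2 from the other genes. DGAT2 was at 198.6 and 163.6 FPKM in hearts of males A and B and at 167.4 and 134.5 FPKM in those of the lactating and the dry cow, a mean of 166.0 ± 26.2 FPKM (SD, n = 4). This level was even across the 4 hearts and below every adipose library, the lowest of which was 3.23 times the highest heart. In the same order, ADIPOQ was at 0.305, 1.36, 2.33 and 0.239 FPKM and FABP4 at 0.404, 2.64, 7.31 and 2.55 FPKM. The heart of the lactating cow held the most ADIPOQ and FABP4, and that of male A the most DGAT2.

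The rumen, the forestomach in which feed is fermented, carried FABP4 with little of the other genes. FABP4 was at 275.8 FPKM in male A, 48.3 in male B, 44.9 in the lactating cow and 68.9 in the dry cow. Male A stood apart from the other 3 animals. ADIPOQ was at 0.979, 0.325, 0.132 and 0.0437 FPKM and DGAT2 at 3.53, 3.76, 2.53 and 2.62 FPKM in the same order.

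The mammary glands also carried FABP4 with little of the other genes. FABP4 was at 250.3 FPKM in the lactating gland and at 227.6 FPKM in the dry gland. The size and order of this difference depended on the scaling. FABP4 was at 182.4 in the lactating gland and 227.6 in the dry gland with libraries rescaled to the same FPKM sum, and at 664.1 and 257.8 after quantile normalization. Scaled by the sum without the 10 most abundant genes, it was at 668.2 in the lactating gland and 221.2 in the dry gland. ADIPOQ was at 0.348 FPKM in the lactating gland and at 2.21 FPKM in the dry gland. DGAT2 was at 0.156 FPKM in the lactating gland, its lowest level in the 47 libraries, and at 1.19 FPKM in the dry gland. For ADIPOQ and DGAT2 the lactating gland was lower under each of the scalings tried, and with 1 animal per state the difference has no replicate check.

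In lung, FABP4 was at 39.8 and 33.4 FPKM in males A and B and at 47.8 and 51.1 FPKM in the lactating and the dry cow, a mean of 42.98 ± 7.97 FPKM (SD, n = 4). The 4 lungs lay close together and overlapped with muscle, the label above them, but not with uterus below, which had 8.71 and 12.2 FPKM in the lactating and the dry cow. ADIPOQ in lung was at 0.172, 0.229 and 0.0555 FPKM in male A, male B and the dry cow and was listed at 0 in the lactating cow. DGAT2 in lung ran from 3.97 to 6.91 FPKM.

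DGAT2 kept a moderate and even level in several other organs. Its mean was 19.5 ± 3.21 FPKM in liver, 16.99 ± 1.08 in frontal cortex, 13.7 ± 1.19 in kidney, 8.85 ± 1.005 in spleen and 3.11 ± 0.627 in rumen (SD, n = 4 each). Liver and frontal cortex overlapped, whereas frontal cortex and kidney, kidney and spleen, and lung and rumen did not overlap. By contrast, in the order of ADIPOQ means the lowest value of each label from muscle downward was at or below the highest value of the next. For muscle this rested on the ileum of male A, as the other ileum libraries were at most 0.781 FPKM, below every muscle. Labels with 1 library have no spread. In these 5 organs ADIPOQ stayed under 1 FPKM in each library, and FABP4 was at most 6.87 FPKM outside the rumen. FABP4 was listed at 0 in the frontal cortex of male B and was between 0.569 and 0.655 FPKM in the other 3. In the ovary DGAT2 was at 8.46 and 2.40 FPKM, FABP4 at 0.582 and 10.1 FPKM and ADIPOQ at 0.202 and 0.234 FPKM in the lactating and the dry cow, so the cow with more DGAT2 had less FABP4. In the uterus DGAT2 was at 1.77 and 2.91 FPKM and ADIPOQ at 0.800 and 0.240 FPKM in the same order. In the lymphocyte library ADIPOQ was at 0.115, FABP4 at 0.122 and DGAT2 at 1.52 FPKM.

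Which libraries carried the genes together was read from each level as a percent of the gene's adipose mean, with 1% counted as carried. All 3 genes were carried by 4 of the 43 libraries, the ileum of male A and the muscles of male A, male B and the lactating cow. The muscle of the dry cow carried ADIPOQ and DGAT2 and fell just short for FABP4, at 0.874%. At this limit of 1% no heart, rumen or gland library carried all 3. DGAT2 was carried alone by 12 libraries (heart, liver and frontal cortex), FABP4 alone by 9 (all rumen, 3 lung and both gland libraries), and 17 libraries carried none.

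Measured against the adipose library of the same animal in place of the mean, 5 of 42 libraries carried all 3 genes, the ileum of male A and all 4 muscles.

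The ileum of male A held 8.74% of the adipose mean of ADIPOQ, 9.58% of that of FABP4 and 11.5% of that of DGAT2. Against the adipose library of the same animal the shares were 8.78%, 7.14% and 8.52%. The muscle of the lactating cow held 5.38% for ADIPOQ, 2.53% for FABP4 and 2.87% for DGAT2, and the muscle of male A held 2.09%, 2.07% and 2.50%. The muscle of male B held 2.25% for ADIPOQ, 1.42% for FABP4 and 2.03% for DGAT2, and that of the dry cow held 1.82%, 0.874% and 1.005%. Against the animal's own adipose library, the muscle shares for ADIPOQ, FABP4 and DGAT2 were 2.10%, 1.54% and 1.86% in male A and 1.58%, 1.27% and 1.25% in male B. They were 5.39%, 2.98% and 4.76% in the lactating cow and 3.095%, 1.26% and 2.37% in the dry cow.

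The single-gene libraries had no such common share. The 4 hearts held 8.88% to 13.1% of the adipose mean of DGAT2, with 0.0301% to 0.294% of that of ADIPOQ and 0.0106% to 0.191% of that of FABP4. The rumen of male A held 7.22% of the adipose mean of FABP4, with 0.123% for ADIPOQ and 0.233% for DGAT2. The lactating gland held 6.55% for FABP4, 0.0439% for ADIPOQ and 0.0103% for DGAT2, and the dry gland held 5.96%, 0.279% and 0.0787%. Over the other scalings the share in the lactating gland ran from 4.28% to 16.2% for FABP4, from 0.0287% to 0.138% for ADIPOQ and from 0.00667% to 0.0302% for DGAT2.

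The ratio of FPKM between the genes followed this division only in part. FABP4 over ADIPOQ was 3.79 to 6.50 in the adipose libraries, 5.28 in the ileum of male A and 2.27 to 4.78 in muscle. It was 149 to 1577 in rumen, 719 in the lactating gland, 103 in the dry gland and 146 to 919 in the 3 lungs with ADIPOQ above 0. DGAT2 over ADIPOQ was 1.15 to 2.59 in the adipose libraries, 2.51 in the ileum of male A and 1.02 to 2.29 in muscle, against 71.8 to 650 in heart. It was 150 to 871 in liver and 67.7 to 153 in kidney. Libraries that did not carry all 3 genes also had ratios near those of adipose tissue. In the ileum libraries of male B, the lactating cow and the dry cow, which carried none of the genes, FABP4 over ADIPOQ was 2.83, 4.84 and 2.58 and DGAT2 over ADIPOQ was 1.82, 4.38 and 1.55. FABP4 over ADIPOQ was 1.32 to 10.7 in the 4 hearts, and DGAT2 over ADIPOQ was 3.61 in the rumen of male A.

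**Figure D2:**
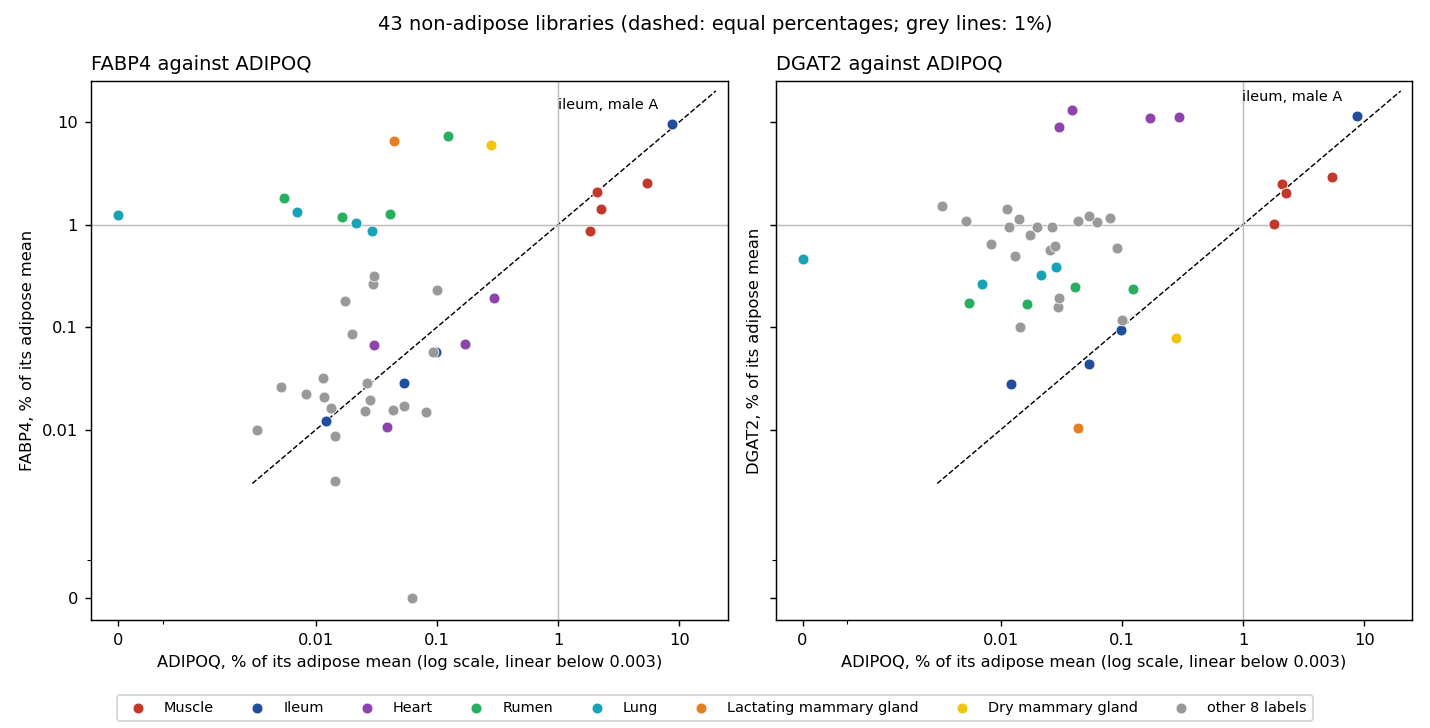
FABP4 (left) and DGAT2 (right) against ADIPOQ in the 43 non-adipose libraries, each as a percent of the gene's adipose mean on axes that are logarithmic above 0.003% and linear below. Points are libraries coloured by label, the dashed line marks equal percents and grey lines mark 1%. The ileum of male A and the muscles lie near the dashed line in both panels, whereas rumen, lung and glands lie far above it for FABP4. In the DGAT2 panel hearts lie far above it, as do livers, kidneys and frontal cortex.

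In the ileum, the level in male A was 88.7 times that of the next ileum library for ADIPOQ, 166 times for FABP4 and 122 times for DGAT2. Of 13594 genes with at least 1 FPKM in that library and a value above 0 in another ileum, 22 (0.162%) were at least 10 times the next library. A larger ratio was held by 6 genes for ADIPOQ, 2 for FABP4 and 4 for DGAT2, counts that include the other members. Traces of liver, rumen and muscle genes were also the highest of the 4 ileum libraries in male A, at 275, 419 and 702 ppm of their source level. The other 3 held 13.5 to 120 ppm of the liver genes, 0 to 239 ppm of the rumen genes and 3.26 to 190 ppm of the muscle genes. The adipocyte genes stood at 87367 to 114739 ppm of their adipose level in that ileum. The part of the traces in this result was not tested.

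Other genes high in adipose tissue were set beside the 3, first the 61 whose adipose mean was at least 4 times that of every other label. Their median was 8.73% of the adipose mean in the ileum of male A, against 2.99% in male B, 1.41% in the lactating cow and 2.58% in the dry cow. In this set the uterus of the dry cow was as high as that ileum, at 8.92%, and that of the lactating cow was at 4.78%. Neither uterus carried any of the 3 genes. In muscle the median was 3.31% and 2.63% in males A and B and 2.82% and 2.36% in the lactating and the dry cow. The lactating cow, highest for each of the 3 genes in muscle, was therefore not the highest for these 61.

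The wider set was not low where only 1 of the genes was carried. Its median was 2.24% to 6.03% in heart, 1.49% to 4.08% in rumen, 0.516% in the lactating gland and 4.10% in the dry gland, so that heart and rumen overlapped with muscle. A stricter set of genes at least 10 times higher in adipose tissue than in every other label held 14 genes besides ADIPOQ and FABP4, and DGAT2 did not meet it. The median of these 14 was 10.3% in the ileum of male A, with quartiles of 5.29% and 16.8% between which each of the 3 genes lay, and 0.0226% to 0.248% in the other 3 ilea. It was 1.37% to 2.97% in the 4 muscles, with the lactating cow at 2.97%. It was 0.00704% to 0.0825% in heart, 0.0110% to 0.364% in rumen, 0.0145% in the lactating gland and 0.269% in the dry gland. In uterus the median of the 14 was 0.0114% in the lactating cow and 0.00601% in the dry cow, far below that ileum. Both sets were defined on these libraries, so percents outside adipose tissue are partly fixed by their rules. The low medians in heart, rumen, uterus and the dry gland belong to the stricter one.

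The libraries of 1 label also differed over genes in general. Of the 61 genes, 52 of the 59 above 0 in ileum (88.1%) were highest in male A, against 40.4% of all 18151 genes above 0 there. In rumen 42 of 57 (73.7%) were highest in male A, against 39.4% of all genes, and in heart 42 of 55 (76.4%) were highest in male B, against 56.2% of all genes. In muscle 29 of 58 (50%) were highest in male A, against 21.8% of all genes, and 15 (25.9%) in the lactating cow, against 34.7% of all genes. Of 43 of the 61 with at least 1 FPKM in the ileum of male A, 5 (11.6%) were at least 10 times the next ileum library, as were the 3 genes.

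**Figure D3:**
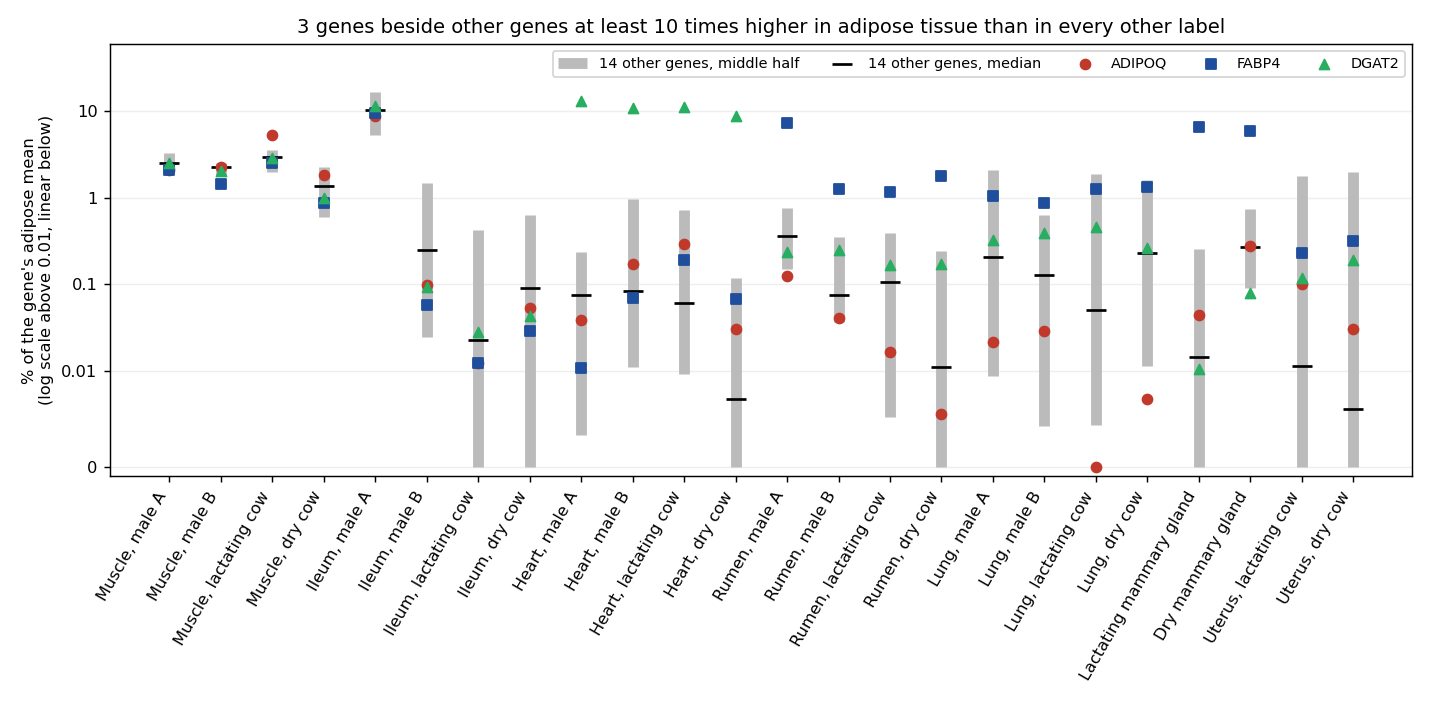
Percent of the adipose mean in 24 libraries of muscle, ileum, heart, rumen, lung, mammary glands and uterus, on an axis that is logarithmic above 0.01% and linear below. Coloured points are the 3 genes, black marks the median and grey bars the middle quartiles of 14 other genes at least 10 times higher in adipose tissue. In the ileum of male A the 3 genes and these 14 lie near 10%, and in heart, rumen and glands 1 of the 3 genes lies far above the bar of this stricter set.

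The animal with the highest level was compared between the genes within the 9 non-adipose tissues sampled in all 4 animals. All 3 genes were highest in the same animal in 2 tissues, the ileum (male A) and muscle (the lactating cow). ADIPOQ and FABP4 were highest in the same animal in 5 tissues, which add heart, rumen and spleen. In rumen and spleen the highest ADIPOQ levels were only 0.979 and 0.731 FPKM. Such agreement was not counted for other genes, so these counts have no background beside them. In adipose tissue ADIPOQ and DGAT2 were highest in male B and FABP4 in male A.

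Over the 47 libraries, Pearson's r of log2(FPKM + 1) was 0.79 between ADIPOQ and FABP4, 0.77 between ADIPOQ and DGAT2 and 0.44 between FABP4 and DGAT2. Over the 43 non-adipose libraries it was 0.52, 0.42 and −0.14. The points share animals and tissues, and these values are descriptions. Among 16634 genes, ENSBTAG00000019379 followed ADIPOQ most closely, with r of 0.99 over 47 libraries and 0.97 over the 43. It averaged 234.4 FPKM in adipose tissue and 5.96 FPKM in muscle and was at 10.1 FPKM in the ileum of male A. The most similar gene was ENSBTAG00000001966 for FABP4 (r of 0.83 over 47 libraries) and ENSBTAG00000012837 for DGAT2 (r of 0.84). Without adipose tissue other genes took their place, ENSBTAG00000000233 for FABP4 (r of 0.74) and ENSBTAG00000018330 for DGAT2 (r of 0.81). These averaged only 0.0968 and 0.439 FPKM in adipose tissue, so neither is a gene high in fat.

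Sex was not used to choose the genes, and males and females were compared within the 10 tissues that had 2 animals of each sex. The genes were chosen with their levels across tissues in view, ileum included. The ileum comparison is therefore not free of that choice. The test was limma on log2(FPKM + 1) across 16503 genes and 40 libraries, with Benjamini-Hochberg adjustment within each tissue and a threshold of 0.05. Of 30 differences, 3 for each tissue, 3 passed, all in the ileum, where 24.3% of all genes tested passed. Over the 10 tissues together 4.52% of tests across all genes passed. The share was 11.7% in adipose tissue, 3.31% in heart, 1.99% in lung, 1.18% in kidney and 1.02% in spleen. It was 0.594% in muscle, 0.491% in liver, 0.37% in rumen and 0.248% in frontal cortex. The other 27 differences lay between −1.58 and 1.55 on the log2 scale, with a lowest adjusted p of 0.338 in limma.

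In the ileum, males were higher than females by 3.16 ± 0.85 for ADIPOQ (log2, SE, limma adjusted p = 0.00821), by 4.29 ± 1.14 for FABP4 (adjusted p = 0.00729) and by 3.74 ± 0.93 for DGAT2 (adjusted p = 0.00455). Both males lay above both females for each gene, and male B lay far closer to the females than to male A. Without the ileum library of male A the male minus female differences fell to 0.51 ± 0.48 for ADIPOQ, 0.87 ± 0.72 for FABP4 and 0.66 ± 0.36 for DGAT2. None then passed (limma adjusted p = 0.593, 0.527 and 0.279), while 10.9% of all genes did. The calls in the ileum therefore rest on 1 library. They also ended when 1 of the cows was left out, which leaves 1 female ileum, but the differences then stayed close to those with all libraries. They were 2.97 ± 1.29 for ADIPOQ, 4.03 ± 1.78 for FABP4 and 3.63 ± 1.47 for DGAT2 without the lactating cow (limma adjusted p = 0.227, 0.236 and 0.188). They were 3.35 ± 1.29, 4.55 ± 1.78 and 3.85 ± 1.46 without the dry cow (limma adjusted p = 0.0612, 0.065 and 0.058).

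In adipose tissue, males averaged 9.88 and females 9.25 for ADIPOQ on the log2(FPKM + 1) scale, a difference of 0.63 ± 0.85 (SE, limma adjusted p = 0.765). For FABP4 males averaged 12.2 and females 11.5, a difference of 0.68 ± 1.14 (limma adjusted p = 0.834). For DGAT2 both males lay above both females, with averages of 11.1 in males and 9.58 in females and a difference of 1.55 ± 0.93 (limma adjusted p = 0.338). None passed, where 11.7% of all genes tested did. All libraries of a gene share 1 estimate of the spread, so leaving out the ileum library of male A also changed the errors in adipose tissue. Without that library the DGAT2 difference in adipose tissue was again 1.55, with an SE of 0.30 and a limma adjusted p of 0.000966, where 12.1% of all genes passed. ADIPOQ and FABP4 did not pass without it (limma adjusted p = 0.351 and 0.557). This exclusion was chosen after seeing the data. Over 11 alternatives DGAT2 in adipose tissue passed in 2, and each of these left out that library.

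The male minus female difference in each tissue was also set against the mean of the other 9. In the ileum it exceeded that mean by 3.01 ± 0.90 for ADIPOQ, 4.43 ± 1.202 for FABP4 and 3.44 ± 0.98 for DGAT2 (log2, SE, limma adjusted p = 0.0179, 0.00941 and 0.0134), in a tissue where 22.3% of all genes passed. In adipose tissue 12.4% of all genes passed this test. Without the ileum library of male A these differences were 0.35, 1.01 and 0.35, and none passed, where 11.5% of all genes did. For DGAT2 in adipose tissue the difference from the other tissues was 0.999 ± 0.98 (limma adjusted p = 0.583), and 1.34 ± 0.31 (limma adjusted p = 0.00656) without that library, where 12.2% of all genes passed. That was the only 1 of 11 alternatives in which it passed. With 2 animals of each sex, an animal's own level and its sex cannot be told apart.

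**Figure D4:**
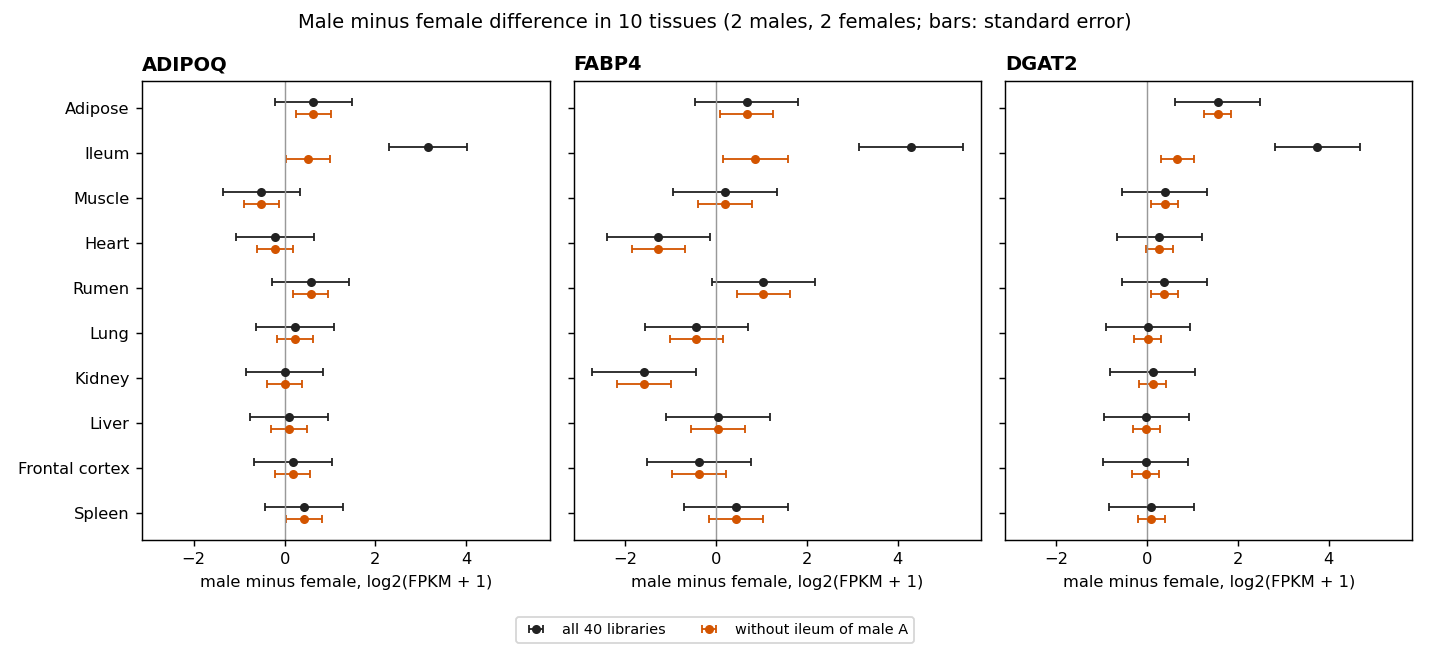
Male minus female difference in log2(FPKM + 1) of ADIPOQ, FABP4 and DGAT2 in 10 tissues, with standard errors from limma, for all 40 libraries (black) and without the ileum library of male A (orange). The ileum differences of 3.16, 4.29 and 3.74 fall to 0.51, 0.87 and 0.66 without that library, and the DGAT2 difference in adipose tissue stays at 1.55 with a smaller error.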

How the data were processed

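RNA isolated with Trizol was DNase-treated, cleaned on RNeasy columns and sequenced from TruSeq libraries on a HiSeq as paired reads of 150 bases (per the labels' protocols). Trimmomatic 0.39, STAR, Cufflinks and assembly UMD3.1 are listed in the submitters' processing notes, without order or settings, and no source used here gives the annotation. The authors deposited 1 table of FPKM values without read counts, so fragment depth is unknown and no counting interval was computed. Its 51 columns include 47 that matched a sample by name, and 4 others were set aside. For male A, the muscle column name is 1 letter longer than the title, and tissue code and animal number made the match. The series text speaks of 4 individuals and 14 tissues, and the labels used here give 5 animals and 15 tissues.

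The members and lists were chosen with earlier results of these data known. Tissue levels were described without a test. Carriage meant at least 1% of the adipose mean. Male and female libraries were compared with limma 3.58.1 in R 4.3.3 (trend, Benjamini-Hochberg adjustment within each tissue) on log2(FPKM + 1), a scale that understates changes of low genes. A gene entered when 2 of the 40 libraries reached 1 FPKM. The 20 cells of tissue and sex, of 2 libraries each, shared 1 spread, and the code was tested on simulated data. Those data had independent errors, no animal effect and no outlying library, so they check the code and not such conditions. Relative depth came from whole-fragment steps of values under 0.2 FPKM. Trace genes had at least 2000 FPKM in their source tissue, and low-trace libraries held under 50 ppm of liver genes (of rumen genes in liver). The same animals gave each tissue, and libraries of 1 animal deviated together (median r of 0.18 over 180 pairs). Pairs of different animals had a median of −0.06 over 540 pairs. The subtraction of tissue means makes that value negative by itself, so it is no independent comparison. The animal block in limma had a correlation of 0.038. Besides the 3 members, the gene most like each was named.

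Alternatives were other scalings, pseudocounts, filters and carriage limits, an animal block and the leaving out of animals or libraries. Gene lists fixed by symbol (other lipid genes and cell type markers) could not be applied, because the reference table, of assembly ARS-UCD2.0, matched 0 identifiers. Tissue labels were therefore not checked against marker genes. Sequences were not used here. Tables and plots were made in Python 3.11.15 with pandas 2.3.3, numpy 2.4.6 and matplotlib 3.10.9.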

Additional observations from a re-analysis of the deposited data

Results flagged for a closer look

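Within the 30 groups of 4 libraries (3 genes in 10 tissues), 1 library lay far from the other 3 in 8 groups, by Dixon's test of the gap to its nearest neighbour over the group's range. At the limit used, chance gives about 1 in 20 for independent groups of normally distributed values. The 3 genes were read in the same libraries, so the 30 groups are not independent. The same count was not made over all genes, and libraries of 1 label also differed over genes in general. The count is therefore no result about these 3 genes in particular. They were chosen with their tissue levels in view, so the flags are a description. The ileum of male A stood out for all 3 genes, at 69.3 FPKM for ADIPOQ, 365.9 FPKM for FABP4 and 173.8 FPKM for DGAT2. ADIPOQ also stood out in the muscle of the lactating cow, at 42.6 FPKM. FABP4 stood out in the rumen of male A at 275.8 FPKM, in the spleen of male B at 2.17 FPKM, and in the frontal cortex of male B, where it was listed at 0. DGAT2 stood out on the low side in the kidney of the lactating cow, at 11.9 FPKM against 14.2 to 14.4 FPKM in the other 3 kidneys.

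The male minus female difference in the ileum exceeded the mean of the other 9 tissues by 3.01 for ADIPOQ, 4.43 for FABP4 and 3.44 for DGAT2 on the log2 scale. All 3 passed in limma after adjustment over all genes with all 40 libraries, and none passed without the ileum library of male A. As the genes were chosen with their ileum levels in view, these calls give no independent support.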

How the results depend on the processing

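The adipose means without each animal in turn ran from 682 to 902 FPKM for ADIPOQ, from 3384 to 4210 for FABP4 and from 1199 to 1806 for DGAT2, and quantile normalization gave 5969 FPKM for FABP4. The number of libraries that carry all 3 genes was 8 at 0.1% of the adipose mean, 1 at 5% and 0 at 10%, and 4 with the adipose mean taken without each animal in turn. The 8 at 0.1% were the ileum and rumen of male A, the heart and uterus of the lactating cow and the 4 muscles. The number was 5 with libraries scaled by their sum without the 10 most abundant genes. It was also 5 against the adipose library of the same animal, which added the muscle of the dry cow.

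These last 2 alternatives and the following ones were chosen after seeing the data. Without the libraries low in traces, the ileum male minus female differences were 2.97 for ADIPOQ, 4.03 for FABP4 and 3.63 for DGAT2, and those against the other 9 tissues 2.70, 4.03 and 3.23, with 0 calls in either comparison. Without the ileum library of male A they were 0.51, 0.87 and 0.66, and 0.35, 1.01 and 0.35, with 1 call in each comparison, DGAT2 in adipose tissue at 1.55 and, against the other tissues, 1.34.

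Without each animal in turn, the ileum differences ran from 0.51 to 5.81 for ADIPOQ, 0.87 to 7.71 for FABP4 and 0.66 to 6.83 for DGAT2. Against the other tissues they ran from 0.27 to 5.74, 1.15 to 7.71 and 0.38 to 6.50, and calls ran from 0 to 3 in each comparison. In adipose tissue they ran from 0.25 to 1.02 for ADIPOQ, 0.53 to 0.82 for FABP4 and 1.29 to 1.80 for DGAT2, which passed at 1.68 without male A. Leaving out an animal leaves 1 library in a cell, assumed to vary like the others. Of 11 alternatives, 6 held each call in the ileum. Among these was the fit without male B, in which male A gave the only male ileum, so it adds no support. ADIPOQ in adipose tissue against the other tissues, 0.20 with all libraries and never past the threshold in 11 alternatives, ran from −0.30 to 0.69 without each animal in turn. It turned to −0.42 with a pseudocount of 0.1, to −0.30 without male B and to −0.04 without the dry cow. The causes of these changes were not tested.

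With the animal as a block (pairing by animal), the ileum differences kept 3.16, 4.29 and 3.74, and the block changed no call. Unknown depth limits every level under 1 FPKM, and 2 animals of each sex limit the sex comparison. Exact values of 0 can be failed estimates.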
